A study of Mus musculus with 4 samples.

Results

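The genes described here are the Kit ligand and receptor pair (Kitl and Kit) and the Cxcl12 chemokine and receptor pair (Cxcl12 and Cxcr4), which act on germ cells during their migration and survival. The 4 genes were taken by symbol from the 40999 rows of the deposited table, and all 4 had counts in every library. Kit lies on chromosome 5 at 75574987 to 75656722 (mm10, plus strand), with 21 exon blocks and an exon length of 5182 bases. Kitl lies on chromosome 10 at 100015787 to 100100416 (plus strand, 10 exon blocks, 5611 bases). Cxcl12 lies on chromosome 6 at 117168535 to 117181368 (plus strand, 4 exon blocks, 7161 bases). Cxcr4 lies on chromosome 1 at 128588199 to 128592313 (minus strand, 3 exon blocks, 1843 bases). No other row of the table shared exon bases with any of the 4 genes (0 bases).

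Kitl encodes stem cell factor, a growth factor that is made by somatic cells and held on their membrane or shed from it. It binds the receptor tyrosine kinase KIT on primordial germ cells, and loss of either gene leaves the gonad with few germ cells. Cxcl12 encodes a secreted chemokine that draws primordial germ cells toward the genital ridge through CXCR4, a G protein-coupled receptor. Neither receptor is confined to germ cells. KIT is also used by mast cells, haematopoietic progenitors, melanoblasts and some interstitial cells, and CXCR4 by endothelial and blood cells.

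RNA came from embryonic gonads of wild-type C57BL/6J mice, a standard inbred strain, at 4 ages, E11.5 through E14.5 in steps of a day. Each time point was 1 library. XX and XY gonads were mixed in equal numbers (at least 6 of each sex, from 2 litters), so no sex difference can be read. The E11.5 sample was the whole genital ridge with the mesonephros, the embryonic kidney beside the gonad, which was removed from E12.5 on. Age and dissection therefore cannot be told apart between E11.5 and E12.5, and with 1 library per time point a difference in age cannot be told apart from a difference between libraries or pools.

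The libraries held 25593453 to 31752562 counts. Ribosomal RNA rows took 8.72% and 8.90% of the counts at E13.5 and E12.5, 17.7% at E11.5 and 48.9% at E14.5. Levels between libraries are therefore given as CPM, counts scaled to library size and corrected by TMM (trimmed mean of M-values). TPM, a transcript abundance that corrects for gene length, was computed with the ribosomal rows included. It serves for comparisons between genes within a library, and between libraries only as an alternative scaling set beside TMM. The intervals are exact 95% intervals of the counts and cover counting error only. No p-value is given because no time point had a replicate. A gene was called different when its scaled levels differed at least 2-fold. Marker genes were summed to describe the labelled tissue. Their lists were chosen with earlier results of these data known, so the sums are no independent check. The 18 germ cell markers summed to 57.6 CPM at E11.5 and to between 575 and 655 CPM in the other libraries, whereas the 9 mesonephros markers summed to 192 CPM at E11.5 and to between 26.4 and 35.1 CPM afterwards. In bulk RNA, fewer cells of a type and less RNA per cell cannot be told apart.

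Kitl, the growth factor, had the highest TPM of the 4 genes in every library but that of E11.5. Its level was 192 CPM at E11.5 (6592 counts), 383 CPM at E12.5 (12019 counts), 398 CPM at E13.5 (15754 counts) and 329 CPM at E14.5 (6192 counts). On TMM scaling the E11.5 library was the low one, and the 3 gonad libraries without mesonephros lay close together. On the scalings that include ribosomal RNA the E14.5 library was the lowest. There its log2 ratio was -1.34 on total counts and -1.89 on TPM against E13.5, and -1.26 and -1.71 against E12.5. Between E11.5 and E12.5 Kitl was 1.99-fold higher, a log2 ratio of 0.99 with an interval of 0.95 to 1.04, which spans the 2-fold limit. The change was 0.06 (0.02 to 0.09) from E12.5 to E13.5 and -0.28 (-0.32 to -0.23) from E13.5 to E14.5 on the log2 scale. In order of TMM-scaled level the libraries ran E11.5, E14.5, E12.5 and E13.5, and each neighbouring pair differed by more than counting error. By TPM, Kitl ranked 1523 of the 27100 rows with counts at E11.5, 689 of 26817 at E12.5, 608 of 27471 at E13.5 and 862 of 26021 at E14.5.

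Kit, the receptor for that factor, showed an early maximum and its lowest level in the last library. It measured 51.5 CPM at E11.5 (1764 counts), 79.9 CPM at E12.5 (2506 counts), 73.8 CPM at E13.5 (2922 counts) and 42.4 CPM at E14.5 (799 counts). Both the earliest and the latest library were low. Kit was 1.55-fold higher at E12.5 than at E11.5 (log2 ratio 0.63, interval 0.55 to 0.72). It differed by -0.11 (-0.19 to -0.04) between E12.5 and E13.5, a difference that took the opposite sign on the TPM scale (0.02). At E14.5 Kit was 1.74-fold lower than at E13.5 (log2 ratio -0.80, interval -0.91 to -0.69) and 1.88-fold lower than at E12.5 (log2 ratio -0.91, interval -1.03 to -0.80). Of the 13585 rows with at least 100 counts in either library, 164 had a lower log2 ratio than Kit from E13.5 to E14.5. Kit was short of the 2-fold limit in each of these comparisons, although its interval against E12.5 reached past it. On the scalings that include ribosomal RNA Kit was past the limit at E14.5, at -1.86 on total counts and -2.42 on TPM against E13.5 and at -1.95 and -2.40 against E12.5.

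**Figure D1:**
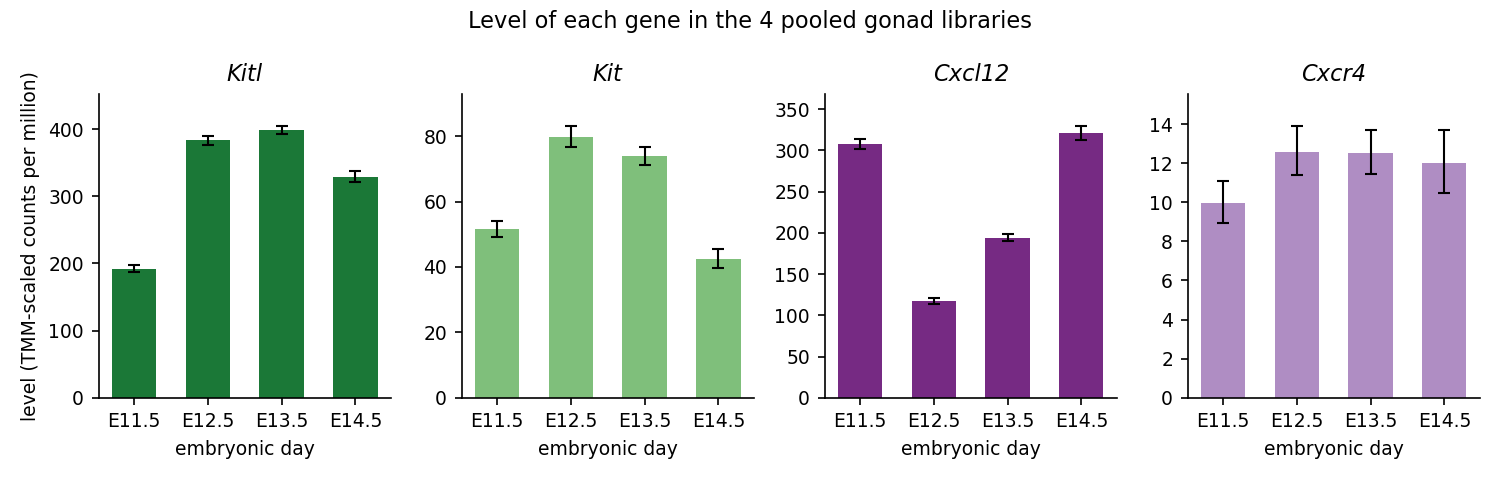
Level of Kitl, Kit, Cxcl12 and Cxcr4 (vertical axes, TMM-scaled CPM, each starting at 0 with its own range) in the libraries from E11.5 to E14.5 (horizontal axes). Bars are single libraries and error bars are 95% Poisson intervals of the counts. Kitl and Kit are lower at E11.5 than at E12.5, Cxcl12 has its minimum of 118 CPM at E12.5, and the Cxcr4 intervals overlap from E12.5 on.

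The ligand exceeded its receptor in every library. Within each library the TPM of Kitl was 3.45 times that of Kit at E11.5 (interval 3.27 to 3.64), 4.43 times at E12.5 (4.24 to 4.63), 4.98 times at E13.5 (4.79 to 5.18) and 7.16 times at E14.5 (6.65 to 7.71). The 4 intervals did not overlap, and each later library had a higher ratio than the one before. This ratio is free of the scaling between libraries. From E11.5 to E12.5 both genes were higher, with Kitl ahead, and from E13.5 to E14.5 both were lower, with Kit further down.

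Cxcl12, the chemokine, followed another course, with its minimum at E12.5. Its level was 308 CPM at E11.5 (10546 counts), 118 CPM at E12.5 (3688 counts), 194 CPM at E13.5 (7690 counts) and 321 CPM at E14.5 (6047 counts). The E11.5 and E14.5 libraries were the high ones and differed by 0.06 on the log2 scale (interval 0.02 to 0.11), a difference whose sign turned on total counts (-0.81) and on TPM (-1.14). Cxcl12 was 2.62-fold lower at E12.5 than at E11.5 (log2 ratio -1.39, interval -1.44 to -1.33). It was then 1.65-fold higher at E13.5 than at E12.5 (log2 ratio 0.73, interval 0.67 to 0.78) and 1.65-fold higher again at E14.5 than at E13.5 (log2 ratio 0.73, interval 0.68 to 0.77). From E12.5 to E14.5, both without mesonephros, this came to 2.73-fold (log2 ratio 1.45, interval 1.39 to 1.51). Of the 13567 rows with at least 100 counts in either library, 345 had a higher log2 ratio than Cxcl12 from E12.5 to E13.5. The higher levels at E14.5 held on scalings that set the ribosomal RNA aside and were smaller or turned on those that include it. For E14.5 over E13.5 the log2 ratio of Cxcl12 was -0.34 on total counts and -0.89 on TPM, and from E12.5 to E14.5 it was 0.41 and -0.039. Those scalings moved the median of all rows from E13.5 to E14.5 by -1.06 and -1.62. A change of scaling moves all rows by about the same amount. The place of Cxcl12 relative to the median is therefore fixed by construction and does not test its higher level.

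Cxcr4, the receptor for Cxcl12, was the lowest of the 4 genes and, on TMM scaling, the most even. It measured 9.98 CPM at E11.5 (342 counts), 12.6 CPM at E12.5 (395 counts), 12.53 CPM at E13.5 (496 counts) and 12.0 CPM at E14.5 (226 counts). On this scaling only the E11.5 library stood below the others. Cxcr4 was 1.26-fold higher at E12.5 than at E11.5 (log2 ratio 0.33, interval 0.12 to 0.55). Between E12.5 and E13.5 the log2 ratio was -0.01 (-0.20 to 0.19), with the opposite sign on total counts (0.02) and on TPM (0.12). The sign also turned on total counts without ribosomal and the 10 most abundant rows (0.0069). Between E13.5 and E14.5 it was -0.06 (-0.30 to 0.17). On TMM scaling and at this depth no difference among the 3 later libraries was detectable. On the scalings that include ribosomal RNA Cxcr4 was past the 2-fold limit at E14.5. Its log2 ratio was -1.12 on total counts and -1.68 on TPM against E13.5, and -1.11 and -1.56 against E12.5. By TPM, Cxcr4 ranked between 7650 and 8637 among the rows with counts.

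Chemokine and receptor were furthest apart at the ends of the series. The TPM of Cxcl12 was 7.94 times that of Cxcr4 at E11.5 (interval 7.13 to 8.86), 2.40 times at E12.5 (2.17 to 2.67), 3.99 times at E13.5 (3.64 to 4.38) and 6.89 times at E14.5 (6.03 to 7.90). The ratios at E11.5 and E14.5 overlapped within counting error, and those at E12.5 and E13.5 stood apart from them and from each other. Kitl was at 0.798 times the TPM of Cxcl12 at E11.5 (0.773 to 0.823), 4.16 times at E12.5 (4.01 to 4.32), 2.61 times at E13.5 (2.54 to 2.69) and 1.31 times at E14.5 (1.26 to 1.35). The ligands thus exchanged rank between E11.5 and E12.5. Of the receptors, Kit was at 1.83 times the TPM of Cxcr4 at E11.5, 2.26 times at E12.5, 2.10 times at E13.5 and 1.26 times at E14.5 (1.08 to 1.46).

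**Figure D2:**
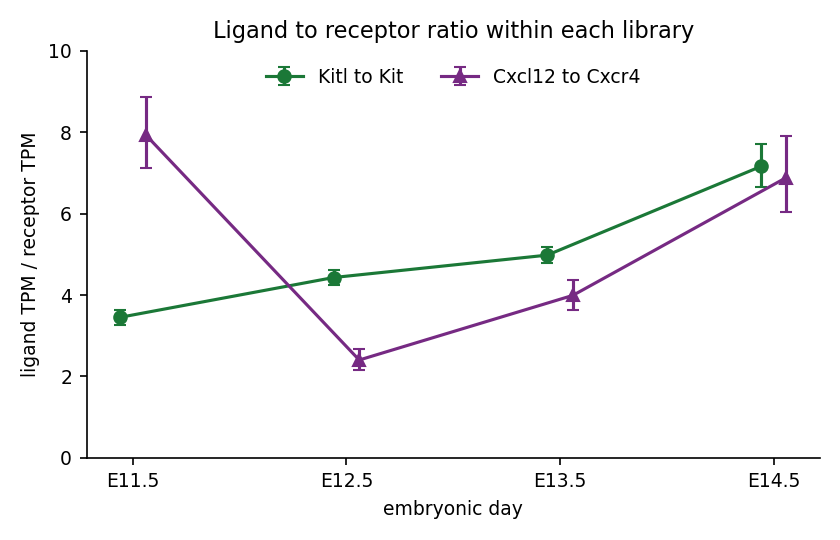
Ratio of ligand TPM to receptor TPM (vertical axis) within each library from E11.5 to E14.5 (horizontal axis), for Kitl to Kit (circles) and Cxcl12 to Cxcr4 (triangles), with exact 95% counting intervals. The Kitl to Kit ratio goes from 3.45 to 7.16, and the Cxcl12 to Cxcr4 ratio has its minimum of 2.40 at E12.5.

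Few of the 4 genes reached the 2-fold limit between consecutive libraries. From E11.5 to E12.5 it was 1 of 4, Cxcl12, against 19.3% of the 20114 rows kept after a filter on low counts. From E12.5 to E13.5 it was 0 of 4, against 6.85% of rows, and from E13.5 to E14.5 it was 0 of 4, against 11.03% of rows. Between E12.5 and E14.5 Cxcl12 alone passed (14.3% of rows), and between E11.5 and E14.5 none did (21.8% of rows), with log2 ratios of 0.77 for Kitl (-0.10 on total counts and -0.43 on TPM), 0.27 for Cxcr4 (-0.61 and -0.94), 0.06 for Cxcl12 (-0.81 and -1.14) and -0.28 for Kit (-1.15 and -1.48). Kitl at 0.99 lay just inside the limit at E12.5 and was past it on total counts (1.16) and on TPM (1.28). Between E11.5 and E13.5, which was not among the planned comparisons, Kitl was past it on TMM scaling too, at 2.07-fold (log2 ratio 1.05, interval 1.01 to 1.09). The shares of rows given here include low-count rows, whereas the 4 genes had at least 226 counts in each library. Among rows with at least 100 counts in either library, 5.84% were at least 2-fold higher and 5.66% lower from E11.5 to E12.5. The shares past the limit were 1.45% from E12.5 to E13.5, 3.45% from E13.5 to E14.5 and 5.61% from E12.5 to E14.5. With only 4 genes, how often they passed cannot show whether they differ from other rows.

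**Figure D3:**
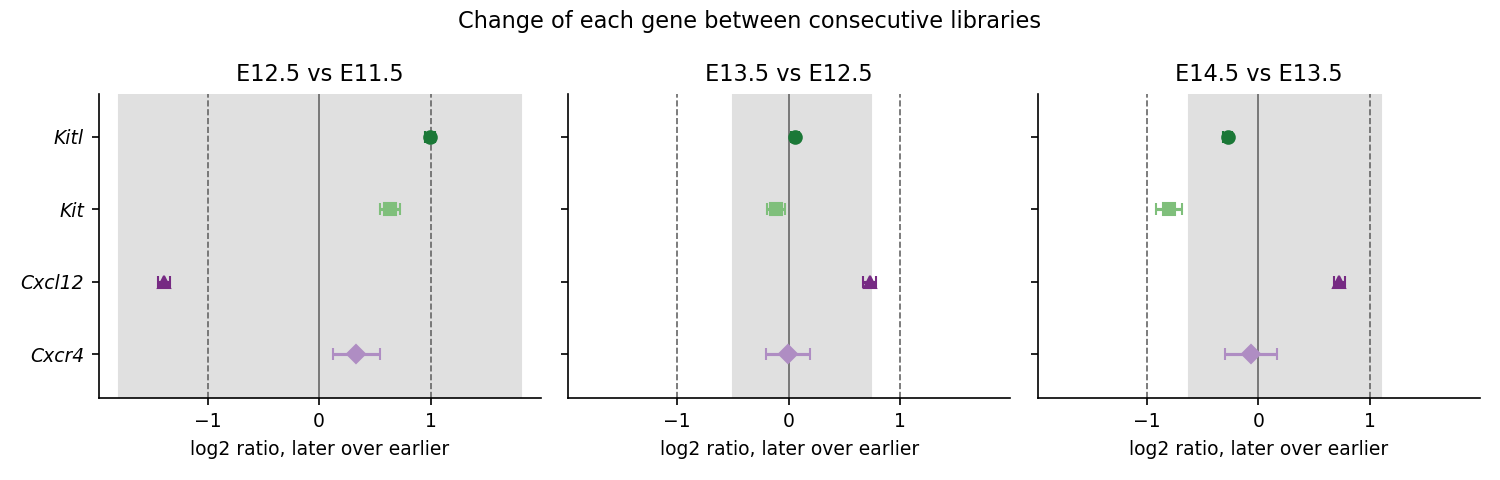
Log2 ratio of the later over the earlier library (horizontal axis) for Kitl, Kit, Cxcl12 and Cxcr4 in the 3 consecutive comparisons, with exact 95% counting intervals. Grey bands hold the middle 95% of all rows with at least 100 counts and dashed lines mark 2-fold, and only Cxcl12 at E12.5 (-1.39) lies past a dashed line.

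Germ cells carry both receptors, and their markers were set beside Kit and Cxcr4. From E11.5 to E12.5, 17 of the 18 germ cell markers were at least 2-fold higher and none was lower, with a median log2 ratio of 3.08 against 0.00 for all rows. Dazl, an RNA-binding protein of germ cells, went from 1.55 to 145 CPM, and the RNA helicase Ddx4 from 2.83 to 55.0 CPM. Relative to that median Kit lay at -2.44 and Cxcr4 at -2.74 log2 units, and all 18 markers had a higher log2 ratio than either receptor. Measured against the summed TPM of the germ cell markers, Kit was at 0.334 in the E11.5 library, then at 0.0525, 0.0495 and 0.0325. From E12.5 to E13.5 no germ cell marker passed the limit (median 0.14), and relative to that median Kit lay at -0.25 and Cxcr4 at -0.14. Against the summed TPM of the list these were -0.085 and 0.022, so that the sign for Cxcr4 turned.

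From E13.5 to E14.5 the germ cell markers had a median log2 ratio of -0.23, with 2 of 18 at least 2-fold higher and 3 at least 2-fold lower. Mael and Tdrd5, of the germline transposon defence, were the higher ones (12.9 to 30.3 CPM and 15.7 to 32.5 CPM). Tfap2c (12.6 to 2.50 CPM), Prdm14 (5.63 to 2.02 CPM) and Nanog (10.5 to 4.94 CPM), transcription factors of early germ cells, were the lower ones. Kit, at -0.80, lay at -0.57 relative to the median of the list, with 5 markers lower than it and 13 higher, and Cxcr4 at 0.17.

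Other cell types that use these receptors moved in several ways. The 13 endothelial markers had median log2 ratios of -0.25, -0.40 and -0.18 in the 3 consecutive comparisons, and only Plvap, a protein of fenestrated endothelium, was past 2-fold (60.7 to 22.5 CPM from E11.5 to E12.5). Kit was above 11 of the 13 from E11.5 to E12.5, above all 13 from E12.5 to E13.5 and below all 13 from E13.5 to E14.5. The mast cell genes Cpa3 and Tpsb2 stayed at 60 counts or fewer in each library, and Fcer1a was at 0 in all 4. Among the melanocyte genes Tyrp1 was at 0 in all 4 libraries and Tyr had at most 3 counts. The 9 macrophage markers were all at least 2-fold lower at E12.5 than at E11.5 (median -1.49). Over the whole list of haematopoietic progenitor and mast cell genes the summed level was 142 CPM at E11.5 and between 69.1 and 91.8 CPM afterwards. Its genes did not move together. Of the 7 that passed the filter, 2 were at least 2-fold higher and 4 lower from E11.5 to E12.5. From E12.5 to E13.5, 2 were higher and 0 lower. The melanocyte and neural crest list summed to between 13.98 and 18.8 CPM. Of its 4 genes that passed the filter, 1 was at least 2-fold lower from E12.5 to E13.5 and 1 from E13.5 to E14.5. The erythroid list summed to between 1911 CPM at E14.5 and 3165 CPM at E12.5. Of its 9 genes, 2 were higher and 3 lower from E12.5 to E13.5. The part of these cells in the levels of Kit and Cxcr4 was not tested.

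The ligands were set beside markers of the somatic cells. Kitl is known from supporting cells of both sexes. From E11.5 to E12.5, 7 of 9 Sertoli cell markers and 5 of 7 pregranulosa cell markers were at least 2-fold higher, with medians of 4.34 and 1.38, which put Kitl at -3.35 and -0.38 log2 units relative to them (-2.66 and 0.31 when each list was summed by TPM). Amh, the hormone that removes the Müllerian duct, went from 1.31 to 284 CPM, and Foxl2, a transcription factor of granulosa cells, from 5.57 to 15.7 CPM. From E13.5 to E14.5 the Sertoli median was 0.11 and the pregranulosa median -0.50, and Kitl at -0.28 lay between them.

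Cxcl12 is known from mesenchyme and blood vessels. Relative to the median of the 11 interstitial and stromal markers it lay at -1.64 log2 units from E11.5 to E12.5, then at 0.68 and 0.50 in the next comparisons (0.43 and 0.066 when the list was summed by TPM). In this list 2 of 11 markers were at least 2-fold higher at E12.5 than at E11.5 and 1 was lower (median 0.25). The Hedgehog receptor Ptch1 was among the higher ones (135 to 303 CPM), and the lower one was Nr2f1, a transcription factor of mesenchyme (124 to 21.5 CPM). None passed from E12.5 to E13.5 (median 0.04, range -0.63 to 0.76). From E13.5 to E14.5, 1 was higher and none lower (median 0.22), the fibrillar collagen Col1a1, at 371 CPM at E12.5, 627 CPM at E13.5 and 1301 CPM at E14.5, while the lowest log2 ratio of the list was that of Maf (-0.14). Most mesonephros markers moved in the same direction as Cxcl12 at E12.5, with a median of -3.37 and a range of -6.51 to 0.64. Of the 9, 7 were at least 2-fold lower, among them Pax2, a regulator of the nephric duct, from 44.7 to 1.91 CPM. The top of that range, at 0.64, went the opposite way to Cxcl12. The part of the removed mesonephros in the lower Cxcl12 at E12.5 was not tested. From E12.5 to E13.5, where Cxcl12 was higher, 3 of the 9 were at least 2-fold lower and none higher (median -0.05). From E13.5 to E14.5, 4 were higher and none lower (median 0.95), and the list summed to 31.1, 26.4 and 35.1 CPM over these 3 libraries. On TMM scaling other stromal lists summed higher in each later library. The pericyte and smooth muscle list was at 136, 174, 223 and 290 CPM and the fetal Leydig cell list at 12.8, 164, 680 and 1121 CPM. Summed by TPM, both were lower at E14.5 than at E13.5 (134.9 to 57.1 and 719.7 to 391.2). Of the 6 pericyte and smooth muscle markers, 2 were at least 2-fold higher and 1 lower from E11.5 to E12.5 (range -3.15 to 1.38). All 5 fetal Leydig cell markers were higher there. Against the endothelial markers Cxcl12 had a higher log2 ratio than all 13 both from E12.5 to E13.5 and from E13.5 to E14.5. The part of these cells in the level of Cxcl12 was not tested.

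**Figure D4:**
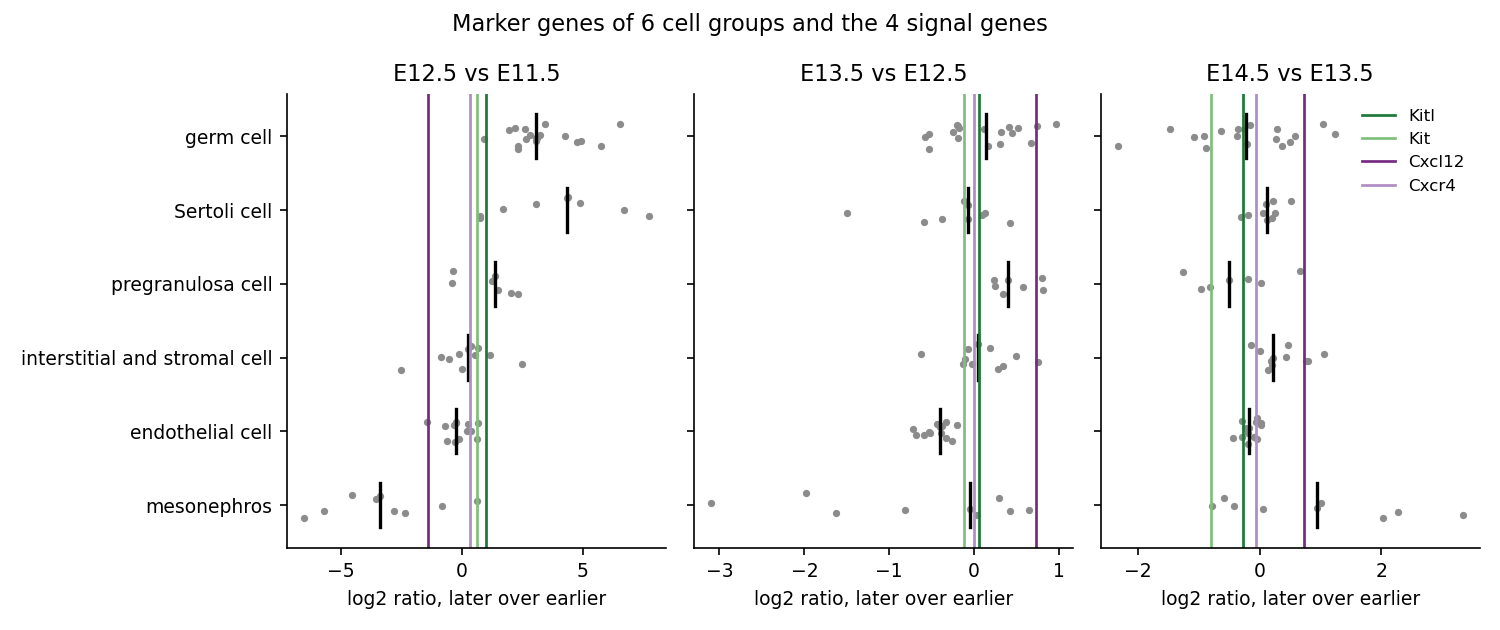
Log2 ratio of the later over the earlier library (horizontal axes, a different range in each panel) for markers of 6 cell groups (rows), with each marker a grey point and the list median a black bar. Vertical lines give Kitl, Kit, Cxcl12 and Cxcr4, which at E12.5 against E11.5 all lie left of the germ cell median of 3.08.

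The list of genes downstream of Kit held 51 genes for adaptors, phosphatidylinositol 3-kinase, the Ras pathway, Src kinases and feedback regulators, and all 51 passed the filter. From E11.5 to E12.5, 3 were at least 2-fold higher and none was lower (median 0.09), against 19.3% of all rows. Pik3cd and Pik3cb, catalytic subunits of phosphatidylinositol 3-kinase, went from 9.08 to 24.3 CPM and from 10.8 to 24.9 CPM, and the third was Mmp9, with at most 56 counts in a library. From E12.5 to E13.5 and from E13.5 to E14.5 none of the 51 passed in either direction (medians -0.05 and -0.08), against 6.85% and 11.03% of all rows. The shares of all rows include low-count rows. Among rows with at least 100 counts in either library they were smaller, at 1.45% and 3.45% in the last 2 comparisons. The list is therefore not shown to be steadier than other genes. No test compared the list with other genes. Among the abundant genes of the list that did not pass was Spred1, which restrains the Ras pathway (159, 191, 175 and 163 CPM). Ptpn6, a phosphatase that dampens KIT, was the only gene of the list at least 2-fold lower at E14.5 than at E12.5 (9.66 to 4.04 CPM, log2 ratio -1.26), a comparison in which none was higher. Adam17, a protease that sheds membrane proteins and was chosen after its values were seen, stayed between 54.2 and 60.9 CPM.

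All of 32 genes around Cxcl12 passed the filter. At E12.5 against E11.5, 4 were at least 2-fold higher and 3 lower (median -0.15), against 19.3% of all rows. That share, and those set beside the lists below, include low-count rows. Ackr3, which encodes the scavenger receptor that clears CXCL12, was the lowest, with 22.8 CPM at E11.5 and 8.51, 7.18 and 8.92 CPM afterwards. Like Cxcl12 it was more than 2-fold lower at E12.5 (log2 ratio -1.42, interval -1.63 to -1.22), and its later log2 ratios were -0.25 and 0.31, against 0.73 and 0.73 for Cxcl12. Dpp4, a peptidase that inactivates CXCL12, went from 16.0 to 6.50 CPM and Rac2, a GTPase of blood cells, from 5.08 to 2.14 CPM. Ptk2b, a focal adhesion kinase, was highest against E11.5 (7.32 to 62.7 CPM), followed by Sdc4, a heparan sulphate proteoglycan (26.9 to 65.7 CPM), and Elmo1, which activates Rac (18.9 to 44.1 CPM). From E12.5 to E13.5 none of the 32 passed. From E13.5 to E14.5, 3 were higher and none lower (median 0.05), but these were low genes, Rac2 with 84 and 83 counts and Rgs1 and Cd74 with at most 30. Gnb1, a G protein subunit, and Hif1a, which drives Cxcl12 and Cxcr4 in low oxygen, were the most abundant genes of the list and stayed between 291 and 329 CPM and between 216 and 311 CPM.

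**Figure D5:**
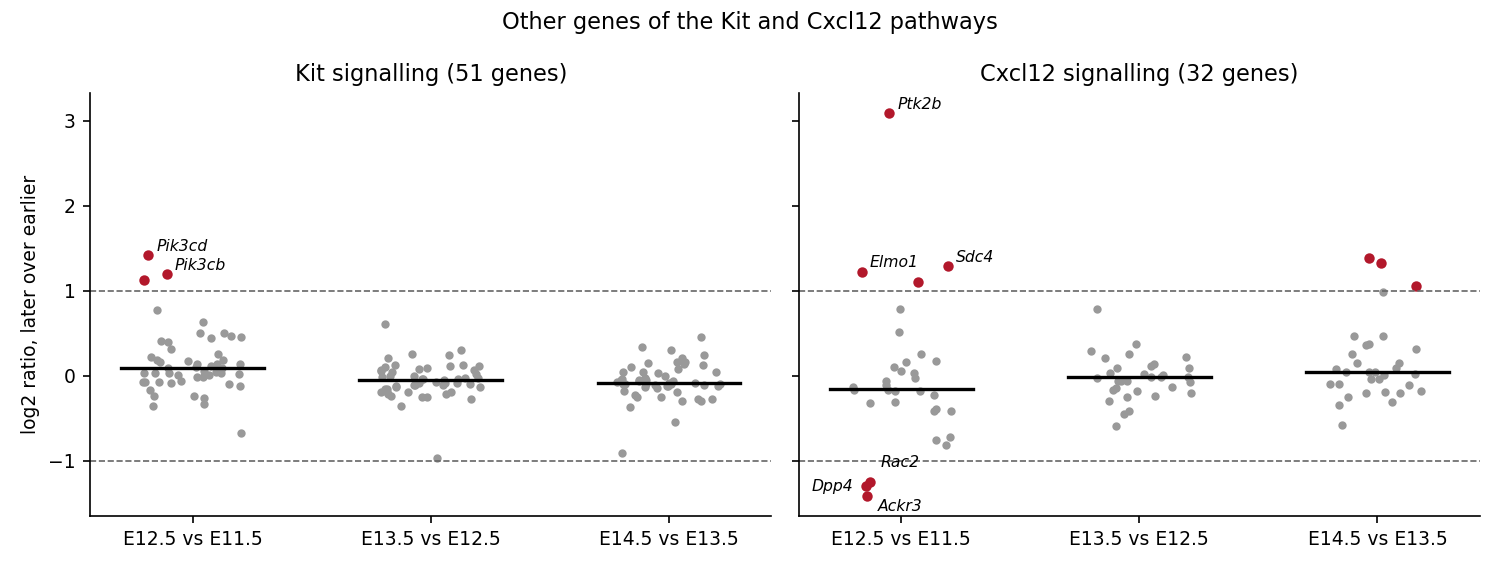
Log2 ratio of the later over the earlier library (vertical axis) for the 51 Kit signalling genes (left) and the 32 Cxcl12 signalling genes (right) in the 3 consecutive comparisons, with black bars for the medians and dashed lines at 2-fold. Red points are past 2-fold: 3, 0 and 0 genes on the left and 7, 0 and 3 on the right, with Ptk2b the highest at 3.10.

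Of 21 other genes of germ cell migration and survival 20 passed the filter. From E11.5 to E12.5, 3 were at least 2-fold higher and 2 lower (median 0.00), against 19.3% of all rows. Dnd1, an RNA-binding protein without which primordial germ cells die, went from 2.63 to 13.96 CPM, the secreted Wnt5a from 97.0 to 221 CPM, and the laminin receptor subunit Itga6 from 134 to 281 CPM. Bmp4, a signal for germ cell formation, went from 26.0 to 5.35 CPM and Ror2, a Wnt5a receptor, from 36.2 to 16.3 CPM. No gene of the list passed in the next comparisons. Of 18 apoptosis genes 17 passed the filter. At E12.5, 1 was at least 2-fold higher, against the same 19.3% of all rows: Pmaip1, which encodes the death promoter NOXA (4.23 to 9.85 CPM). None passed in the next comparisons. The most abundant were the survival factor Mcl1 (182, 185, 195 and 184 CPM) and Trp53, which encodes p53 (109, 107, 84.6 and 67.1 CPM). Between E11.5 and E14.5, 2 were at least 2-fold higher and 1 lower (median -0.16), against 21.8% of all rows. Pmaip1 was higher (log2 ratio 2.12), as was the death receptor gene Fas, with at most 37 counts in a library. The survival factor Bcl2 was lower (log2 ratio -1.03), at 86.8, 56.3, 48.5 and 42.6 CPM over the 4 libraries.

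Relatives of the 4 genes were counted against the same 19.3% of all rows. Among 11 receptors and ligands of the Kit receptor family (the Csf1, Flt3 and Pdgf systems), 2 were at least 2-fold higher and 4 lower at E12.5 than at E11.5 (median -0.42). Pdgfa went from 13.3 to 32.5 CPM, Pdgfb from 62.0 to 25.1 CPM, Pdgfc from 88.7 to 36.9 CPM and the macrophage receptor Csf1r from 18.2 to 7.59 CPM. From E12.5 to E13.5, 1 of the 11 was lower (log2 ratio -1.41) and none higher, against 6.85% of all rows. From E13.5 to E14.5, against 11.03% of all rows, Pdgfb went from 20.5 to 104 CPM, and the other gene that passed, Flt3, had at most 17 counts. Of 17 other CXC and CX3C chemokines and receptors, 9 passed the filter. At E12.5 against E11.5, 2 were higher and 4 lower, and those with at least 100 counts were Cx3cl1 (9.05 to 23.5 CPM) and its receptor Cx3cr1 (11.6 to 4.27 CPM). From E12.5 to E13.5, 2 of the 9 were lower and none higher (lowest log2 ratio -4.25). From E13.5 to E14.5, 1 was higher (log2 ratio 3.75) and none lower. The whole list of chemokines and receptors summed to between 26.9 and 33.8 CPM per library, against 118 to 321 CPM for Cxcl12 alone. None of 15 housekeeping genes passed in the consecutive comparisons (medians 0.12, -0.05 and -0.03).

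Among the 11639 other rows that had 100 counts or more in all 4 libraries, the courses most like each gene were found by the root mean square difference of the centred log2 levels over the 4 libraries. For Kitl these were Xk (0.0228), Nfatc2ip (0.0235) and Anxa4 (0.0298). For Kit they were Lzts1 (0.0665), Jak3 (0.0798) and LOC102637727 (0.0822), further off than for Kitl. For Cxcl12 they were Lgi2 (0.0259, at 13.4, 5.13, 8.62 and 14.6 CPM), Nlgn3 (0.0588) and Tmem132c (0.0836). For Cxcr4 they were Sec31a (0.00436), Dstyk (0.00773) and Trim35 (0.0102). Each course has 4 points, all from the same libraries, so close matches are easily found. Among the 4 genes the smallest distance was that of Kitl and Cxcr4 (0.283), with Cxcr4 at rank 1420 for Kitl and Kitl at rank 8634 for Cxcr4. Kit and Kitl were 0.379 apart, with Kitl at rank 5143 for Kit and Kit at rank 3691 for Kitl.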

How the data were processed

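Total RNA of 4 pooled gonad samples was made into rRNA-depleted, stranded libraries with unique molecular identifiers. Per the study's methods, reads were aligned to mm10 with STAR, deduplicated with UMI-tools and counted with featureCounts (versions are not given in the sources used here). The deposited tables hold the authors' read counts per gene, TPM and RPKM computed from them, and gene positions and lengths. RPKM values were deposited by the authors but used in no result.

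From the deposited counts, TMM factors were computed over all 4 libraries on the 20114 of 40999 rows kept by filterByExpr (edgeR 4.0.16, R 4.3.3). A log2 ratio compares scaled counts with a prior count of 0.125, and its interval is the exact 95% Clopper-Pearson interval of the later library's share of the counts. Intervals of single levels are exact Poisson intervals. Totals of 25593453 to 31752562 counts put 3 counts, taken as the floor, at 0.0945 to 0.117 CPM (counts scaled to the library total). Each time point, read from the labels, had 1 library, so variation between libraries could not be estimated. The main results therefore rest on no test, and edgeR's cut-offs were reduced to the 2-fold limit. An edgeR test with a preset, not estimated, variation was run only as an alternative. The comparisons were each time point with the one before, and E14.5 with E12.5 and E11.5. Ratios between genes used TPM.

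The 4 genes, the 7 pathway lists and the 12 marker lists (275 entries, all with a row, older symbols included) were chosen with earlier results of these data known. Named genes were the 4 genes, per list up to the 3 highest and 3 lowest past 2-fold with at least 100 counts and the most abundant pair that did not pass, the markers, and the 3 rows most like each gene. Some genes that this rule would name are not reported here. The calculations were tested on simulated data with counting error only and known changes in the E12.5 library alone. All simulated libraries otherwise shared 1 composition, so that test covers neither the ribosomal share at E14.5 nor variation between libraries. Alternatives changed the scaling (DESeq2 1.42.0 size factors among them), prior count, filter and limit. Scripts ran in Python 3.11.15 with scipy 1.17.1, pandas 2.3.3 and numpy 2.4.6, and figures were drawn with matplotlib 3.10.9.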

Additional observations from a re-analysis of the deposited data

How the results depend on the processing

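DESeq2 size factors, upper-quartile factors, TMM on pairs of libraries, total counts without ribosomal and the 10 most abundant rows, and a prior count of 2 changed none of the counts of the 4 genes past the limit. Scalings that include ribosomal RNA did. On total counts, the number of the 4 genes past 2-fold was 2 (E11.5 to E12.5), 3 (E13.5 to E14.5), 3 (E12.5 to E14.5) and 1 (E11.5 to E14.5), and on TPM it was 2, 3, 3 and 2. The log2 ratio of Cxcl12 from E12.5 to E14.5 changed sign on TPM (-0.039). At 1.5-fold the numbers were 3 from E11.5 to E12.5, 1 from E12.5 to E13.5, 2 from E13.5 to E14.5, 2 from E12.5 to E14.5 and 1 from E11.5 to E14.5. At 4-fold, and at 2-fold with an FDR of 0.05 under a preset biological coefficient of variation of 0.4 (edgeR), Cxcl12 was no longer counted from E11.5 to E12.5 (0 and 0) or from E12.5 to E14.5 (0 and 0).

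Of all rows, 3880 passed from E11.5 to E12.5, 1378 from E12.5 to E13.5, 2219 from E13.5 to E14.5 and 2878 from E12.5 to E14.5. With no filter on low counts these were 10245, 7498, 8720 and 9173, and with at least 10 counts in both libraries 2254, 517, 1128 and 1480. At 1.5-fold they were 6436, 3265, 4084 and 5336, and at 4-fold 1484, 308, 663 and 892. With the FDR at a variation of 0.4 they were 283, 1, 31 and 71, and at 0.1 the last 3 were 366, 940 and 1504. On total counts 12457 rows passed from E13.5 to E14.5 and 11531 from E12.5 to E14.5, and on TPM 17756 and 16506. The share of passing rows that were higher in the later library was 50.2% from E11.5 to E12.5 (65.04% on TPM), 57.2% from E12.5 to E13.5 (69.5% on TPM), 67.2% from E13.5 to E14.5 (3.36% on total counts, 1.15% on TPM), 67.3% from E12.5 to E14.5 (5.15% and 2.07%) and 59.5% from E11.5 to E14.5 (13.3% and 6.39%).

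Of the list genes together, 93, 20 and 24 passed in the consecutive comparisons. At 4-fold these were 50, 9 and 7, with the FDR at a variation of 0.4 they were 25, 0 and 0, at 1.5-fold the last pair were 47 and 48, and from E13.5 to E14.5 they were 160 on total counts and 230 on TPM. As counts without length, the ratio of Kitl to Kit was 3.74, 4.80, 5.39 and 7.75 from E11.5 to E14.5 and that of Cxcl12 to Cxcr4 30.8, 9.34, 15.5 and 26.8. Over the summed TPM of the germ cell markers Kitl was at 1.15, 0.232, 0.246 and 0.232 and Cxcl12 at 1.44, 0.0559, 0.0942 and 0.178. Against a list's summed TPM in place of its median, from E11.5 to E12.5 Kit differed from the germ cell list by -2.67, Cxcr4 from it by -2.97, Kitl from the Sertoli list by -2.66 and from the pregranulosa list by 0.31, and Cxcl12 from the interstitial list by -1.31 and from the mesonephros list by 1.07. From E12.5 to E13.5 Kit differed from the germ cell list by -0.085 and Cxcl12 from the interstitial list by 0.43, and from E13.5 to E14.5 the latter was 0.066. The rows most like each gene changed with the measure: with at least 1000 counts in every library, or with Pearson's r in place of the distance, at most 1 of 3 rows was shared, apart from Cxcr4 at 1000 counts (3 of 3).

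No paired analysis was possible because each time point has 1 library, so the groups share fewer than 2 replicate numbers. For the same reason leaving out libraries was not run. The depth limits Cxcr4 most, at 226 to 496 counts per library, and no interval here covers variation between animals or libraries.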
